A study of Sus scrofa with 22 samples.

Results

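Cholesterol is made in the cell from acetyl-CoA through mevalonate, farnesyl diphosphate, squalene and lanosterol, and it is also taken up from lipoproteins, moved between membranes, stored as ester and exported. The 34 genes described here cover these steps in the porcine endometrium. They were chosen by name for their function and not by a cut on their values, but with earlier results of these data known. Each had to be listed in at least 1 of the 3 count tables of the study. All 34 were listed, out of 12401 genes listed in all, and 33 of them in all 3 tables, because MVK was not listed for GE. Of the 34, 19 are synthesis enzymes (8 mevalonate and isoprenoid steps, 3 squalene and lanosterol steps, and 8 steps after lanosterol), 5 belong to the SREBP regulatory system, 4 to intracellular transport and storage, 4 to uptake and 2 to export.

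The RNA was collected by laser capture microdissection (LCM) from frozen endometrium of 8 prepubertal German Landrace and Piétrain crossbred gilts (young sows before their first litter), all on Day 12. All 8 gilts received PMSG and then hCG to synchronize ovulation. The 4 pregnant gilts (gilts 01, 03, 05 and 14) were inseminated with semen, and the 4 cyclic control gilts (gilts 02, 04, 06 and 13) with the supernatant of centrifuged semen of the same boar. Luminal epithelium (LE) and glandular epithelium (GE) were represented by 1 library from each gilt. Stroma (S) was represented by 1 library from each of 3 control gilts (02, 04 and 13) and 3 pregnant gilts (01, 05 and 14). The captured stromal areas hold several cell types by the description of the study. The RNA was amplified from very small inputs, and counts are reads left after removal of PCR duplicates. Between 893912 and 4020796 counts fell on listed genes in a library, so that 3 counts correspond to 0.690 to 3.50 CPM (counts scaled to a common library total).

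The synthesis enzymes are known to be switched together. When sterol in the membrane of the endoplasmic reticulum is low, the chaperone SCAP escorts the SREBP precursors (genes SREBF1 and SREBF2) to the Golgi apparatus, where they are cleaved to transcription factors that bind sterol regulatory elements, often next to a CCAAT box. When sterol is high, the INSIG proteins hold SCAP back, and LXR receptors, activated by oxysterols, switch on the exporters. In the endometrium, sterol is needed for membranes and lipid rafts of the epithelium that faces the conceptus.

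To show what such a control region looks like in the pig, the promoters of HMGCS1 and SREBF2, which hold the core of a sterol regulatory element, are printed here from 250 bases before to 50 bases after the annotated gene start (Sscrofa11.1, RefSeq annotation). Capitals mark each match, on either strand, to the core TCACNCCAC or to CCAAT, which reads ATTGG on the other strand. The promoter of HMGCS1, which makes HMG-CoA, lies on the minus strand at chr16:27957212-27957511, and that of SREBF2 on the minus strand at chr5:6784675-6784974.
HMGCS1: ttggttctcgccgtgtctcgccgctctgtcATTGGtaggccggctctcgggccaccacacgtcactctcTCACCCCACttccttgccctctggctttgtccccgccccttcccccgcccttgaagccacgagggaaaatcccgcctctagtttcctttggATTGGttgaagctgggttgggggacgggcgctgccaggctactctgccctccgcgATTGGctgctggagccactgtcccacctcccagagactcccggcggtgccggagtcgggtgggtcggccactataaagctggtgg
SREBF2: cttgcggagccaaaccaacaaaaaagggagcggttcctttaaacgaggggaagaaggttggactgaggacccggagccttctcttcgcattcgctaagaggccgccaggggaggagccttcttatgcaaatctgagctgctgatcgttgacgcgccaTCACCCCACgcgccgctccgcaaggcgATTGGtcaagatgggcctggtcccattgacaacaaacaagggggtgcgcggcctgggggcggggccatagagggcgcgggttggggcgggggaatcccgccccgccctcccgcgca
The core starts 181 bases before the gene start in HMGCS1 and 93 bases before it in SREBF2. Of 11810 promoters of listed protein-coding genes, 106 (0.898%) held the core and 4227 (35.8%) held CCAAT, and 43 (0.364%) held both. Among the 34 members, the core was found in 3 promoters, CCAAT in 23 and both in 3. A match is a match of letters in this window and nothing more.

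Before the results, the compartment labels were checked with marker genes. The libraries labeled S carried epithelial markers (EPCAM, CDH1 and 5 others, none of them at 0) at a summed level of 2593 to 3253 CPM in the control and 1229.9 to 4245 CPM in the pregnant group, against 2793 to 4253 CPM in LE and 768 to 3312 CPM in GE. Fibroblast markers (COL1A1, COL3A1, DCN and 4 others) reached 4594 to 8281 CPM in the control S libraries, below every control LE library (11116 to 16499.9 CPM). The pregnant S library of gilt 01 stood apart with 60915 CPM of fibroblast markers and the lowest epithelial level of the S libraries, and so did the control GE library of gilt 02 (45073 CPM of fibroblast, 768 CPM of epithelial and 8061 CPM of smooth muscle markers). Smooth muscle markers also reached 4969 CPM in the pregnant LE library of gilt 01, which is the shallowest of all. Endothelial markers lay between 47.0 and 1766 CPM and leukocyte markers between 57.1 and 285 CPM over all libraries. Across the 10643 genes of all 3 tables, the 3 control S libraries had a median correlation of 0.919, 0.900 and 0.946 with the control LE libraries and of 0.810, 0.898 and 0.836 with control GE, whereas the 3 pregnant S libraries had 0.775, 0.868 and 0.712 with pregnant LE and 0.841, 0.894 and 0.880 with pregnant GE. Pregnancy and this likeness to LE or GE cannot be told apart in S. The part of the markers in the differences was not tested. The counts and medians of S and GE are given with and without the libraries that stood apart, as are the values of selected members.

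By its mean level per kilobase of exon, FDPS was the highest member in each compartment. FDPS makes farnesyl diphosphate, the branch point between sterols and other isoprenoids. Its level in LE was 684 ± 130.1 CPM per kb (SD, n = 8 libraries), from 531 to 864, and every LE library lay above the highest LE level of the next member, FDFT1 (157 ± 51.9 CPM per kb, up to 216). In GE, FDPS had 178 ± 176 CPM per kb (n = 8) because the control library of gilt 06 reached 603, and MSMO1 (141 ± 68.4 CPM per kb) did not lie apart from it. The first place of FDPS in GE rested on that library. In S, FDPS had 352 ± 229.9 CPM per kb (n = 6), followed by MSMO1 with 154 ± 87.1. MSMO1, ABCA1, CYP51A1, HSD17B7 and FDFT1 held the next 5 places in every compartment, between 69.5 and 157 CPM per kb, and their ranges overlapped. The lowest member was MVK in LE (1.28 ± 0.653 CPM per kb) and S (1.02 ± 0.445 CPM per kb), and LRP8 in GE (1.85 ± 0.905 CPM per kb). The median of all listed genes was 9.84 CPM per kb in LE, 9.48 in GE and 9.73 in S, so that the members spanned from below to far above a typical gene, as the plot of levels per kilobase shows.

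**Figure D1:**
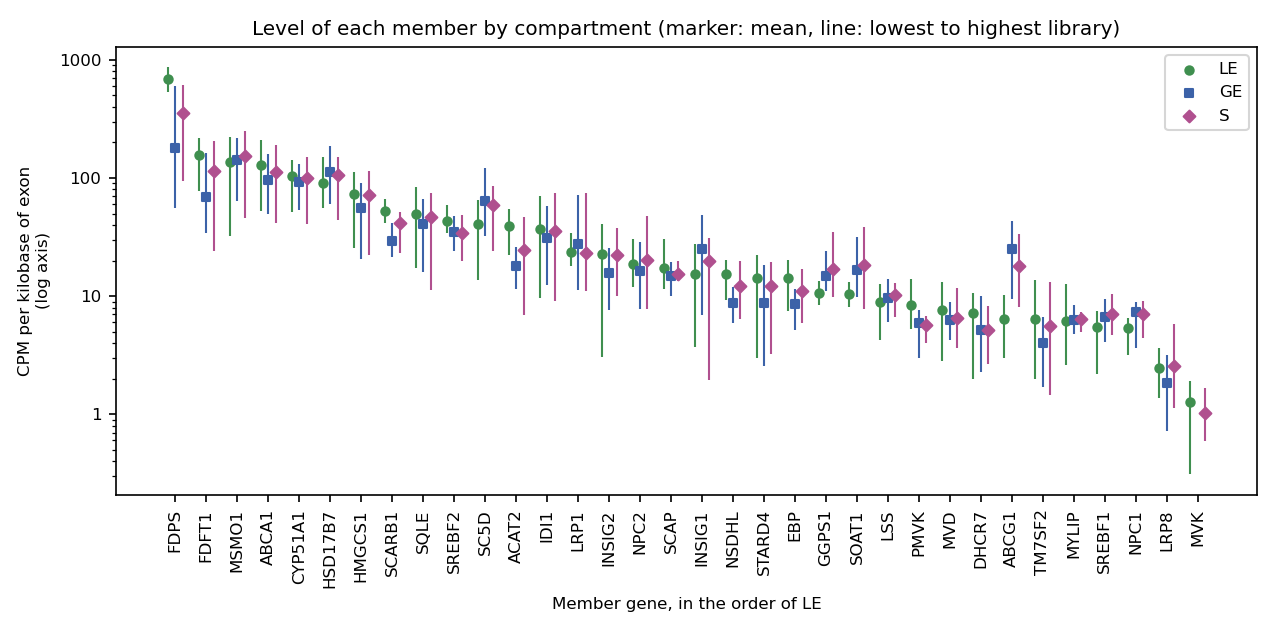
Mean level of each of the 34 members in LE, GE and S in CPM per kilobase of exon on a log axis, with a line from the lowest to the highest library (8 libraries in LE and GE, 6 in S). FDPS is highest in each compartment, in GE only through the control library of gilt 06, and MVK (not listed for GE) and LRP8 are lowest.

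The first question was whether these genes differ between pregnant and control gilts on Day 12. In LE, 27 of the 34 members (79.4%) had a negative log2 FC, that is a lower level in the pregnant group, and their median was -0.52, while 49.5% of the 11415 genes tested in LE were lower and their median was 0.01. Of the members, 3 were called at an FDR below 0.01, namely IDI1, MSMO1 and SC5D, all lower in pregnant gilts. This is 8.82% of the members, close to the 10.0% called among all genes of LE. At an unadjusted p below 0.05, 13 members (38.2%) were lower in pregnant LE, against 16.2% of all genes, and 8 members (23.5%) were lower without overlap between the groups, against 12.7% of all genes. Without gilt 01, whose LE library was shallow and rich in smooth muscle markers, 13 members were lower at that p against 17.0% of all genes, 2 were called (5.88%, against 10.1% of all genes) and the median was -0.56. The count of called members was 9 without gilt 03 (26.5%, against 7.93% of all genes). It was 1 without gilt 14, where 1643 of 11415 genes were called. It was 0 without gilt 02, 04, 05, 06 or 13, where 684, 588, 664, 627 and 678 genes were called. Markers of other cells moved with the group in LE as well. Leukocyte markers had a median log2 FC of -0.85 with 4 of 6 lower at an unadjusted p below 0.05, and summed to 107 to 229 CPM in control and 77.4 to 109.7 CPM in pregnant LE. Endothelial markers had a median of 0.72 with 3 of 5 higher at that p, and summed to 540.4 to 826 CPM in control and 531 to 1375 CPM in pregnant LE. Of the 7 epithelial markers, 4 were higher and 3 lower at that p, and 4 were called. Beside these lists, 4059 of all 11415 genes had an unadjusted p below 0.05 in either direction, and 1852 of them were lower. The part of the markers in the lower members was not tested. A lower level in a captured sample can come from fewer cells of a type or from less RNA per cell, and these cannot be told apart.

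In GE, no member was called at an unadjusted p below 0.0021, where 0.694% of 11676 genes were. The median log2 FC of the 33 members was -0.29 and 23 (69.7%) were lower, against a median of -0.02 and 52.3% for all genes. At an unadjusted p below 0.05, IDI1, SQLE and TM7SF2 were lower (3.35% of all genes were) and ABCG1 was higher in edgeR, and 2 members, TM7SF2 and ABCG1, passed 0.0021 with the Wald test of DESeq2. TM7SF2 was the 1 member lower without overlap, where 2.20% of all genes were. Without gilt 02, 8 members were lower at a p below 0.05 against 3.90% of all genes, none was called, and the median was -0.31. In each case 1 member was called without gilt 05 (IDI1, where 0.377% of all genes were called) and without gilt 13 (ABCG1, where 0.856% were). Epithelial markers moved with the group in GE, with sums of 768, 1791, 2284 and 2058 CPM in control gilts 02, 04, 06 and 13. In pregnant gilts 01, 03, 05 and 14 the sums were 2348, 2696, 3312 and 2762 CPM, without overlap. The sums of fibroblast, smooth muscle, endothelial and leukocyte markers overlapped. The part of the markers in the differences of GE was not tested.

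In S, 2 members were called at an unadjusted p below 0.0021, IDI1 lower and ABCG1 higher in pregnant gilts, which is 5.88% of the members against 1.47% of 11532 genes. Neither passed an FDR of 0.05. The median log2 FC of the members was -1.09, and 26 (76.5%) were lower, whereas the median of all genes was 0.08 and 43.5% were lower. At an unadjusted p below 0.05, 18 members (52.9%) were lower in pregnant S against 5.96% of all genes, and 20 (58.8%) were lower without overlap against 9.38% of all genes. Without gilt 01, whose S library was rich in fibroblast markers, 12 members were lower at that p against 6.67% of all genes, 1 (ABCG1) was called, as were 173 of 11532 genes, and the median was -0.98. The count of called members was 11 without gilt 05 (32.4%, against 1.92% of all genes). It was 1 without gilt 14, where 187 of 11532 genes were called. It was 0 without gilt 02, 04 or 13, where 74, 119 and 65 genes were called. Beside these differences, all 7 fibroblast markers had a higher level in pregnant S (median log2 FC 1.58, 3 at an unadjusted p below 0.05), and so had all 5 endothelial markers (median 1.45, 1 at that p). Of all 11532 genes, 1438 had that p in either direction, and 687 of them were lower. The summed fibroblast markers were 4594, 8159 and 8281 CPM in control gilts 02, 04 and 13 and 60915, 8028 and 11947 CPM in pregnant gilts 01, 05 and 14. The summed epithelial markers overlapped (2593 to 3253 CPM in control and 1229.9 to 4245 CPM in pregnant S). So did the leukocyte markers (77.7 to 99.2 CPM and 66.3 to 285 CPM). The part of the markers in the lower members of pregnant S was not tested.

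**Figure D2:**
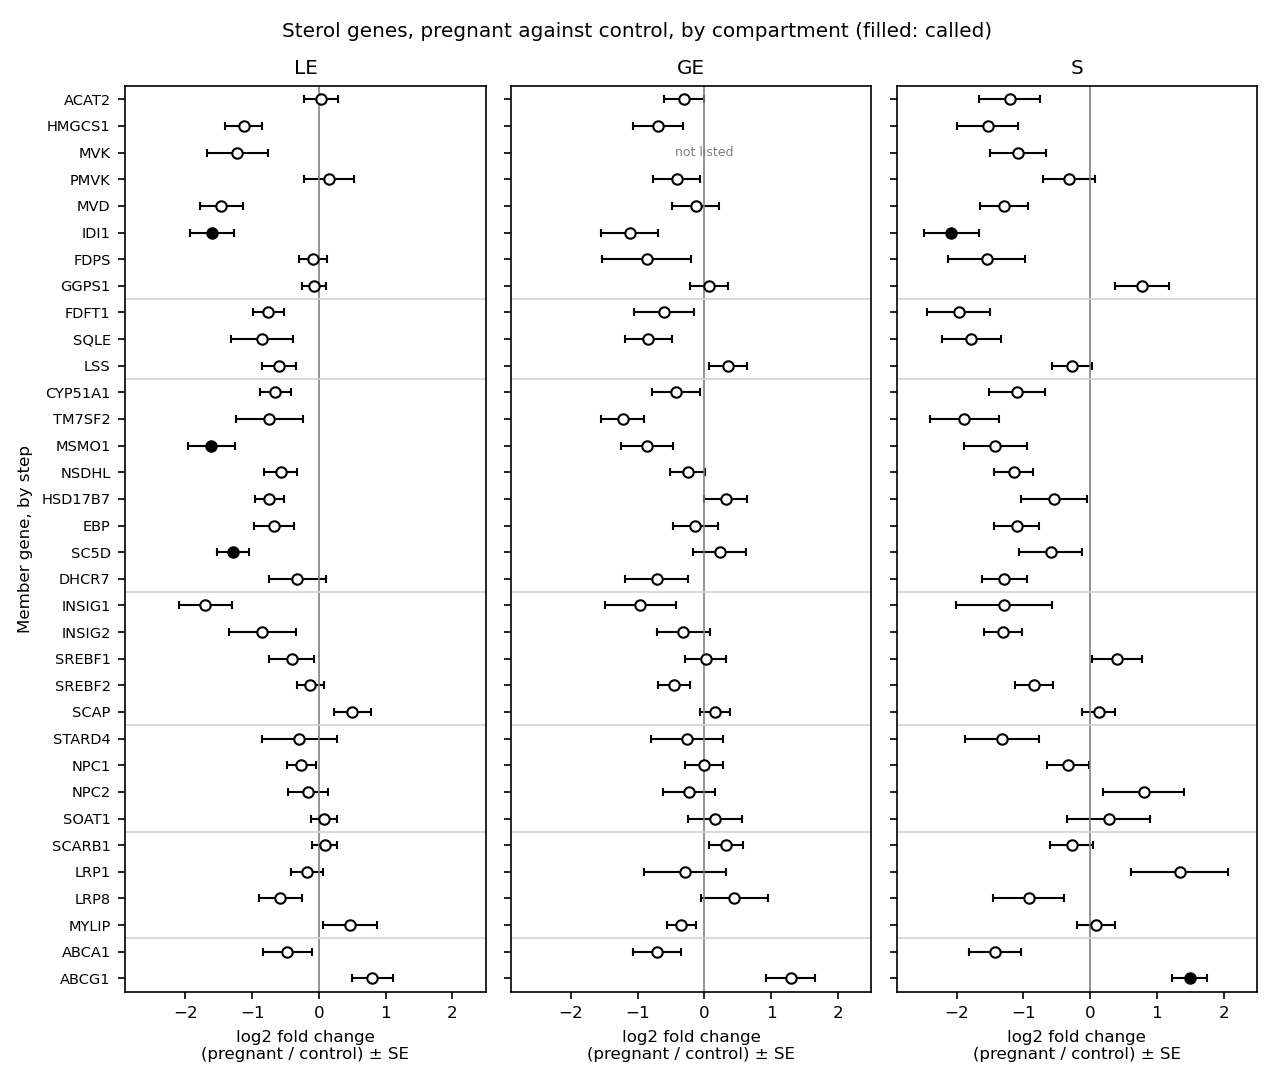
Log2 FC (pregnant over control) with its SE for every member in LE, GE and S, ordered from synthesis at the top to export at the bottom, with filled points for members called in that compartment. Of the 19 synthesis enzymes, 17 lie left of 0 in LE and 18 in S, while ABCG1 lies right of 0 in all 3 compartments (0.80, 1.29 and 1.49). In GE, the enzymes GGPS1, LSS, HSD17B7 and SC5D lie right of 0. The shares of all genes that were lower are given in the text.

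Added up, the synthesis enzymes made this visible in single libraries. Their summed level in control LE was 4282, 3589, 3744 and 4152 CPM in gilts 02, 04, 06 and 13, and in pregnant LE 2294, 3598, 1964 and 2313 CPM in gilts 01, 03, 05 and 14. In LE, 3 of the 4 pregnant gilts lay well below all controls and gilt 03 lay among them. In GE, where 18 of the enzymes were listed, the sum was 1382, 2533, 3342 and 2375 CPM in the control and 1559.6, 1422, 2535 and 1269.7 CPM in the pregnant gilts of the same order. The GE groups overlapped, since gilt 05 reached the level of the controls and control gilt 02, the library rich in fibroblast markers, lay low. In S, it was 3824, 3311 and 4209 CPM in gilts 02, 04 and 13 and 975, 2515 and 1078 CPM in gilts 01, 05 and 14. All pregnant S libraries were below all control ones, and gilt 05 was again the highest of them. Thus gilt 05 had the lowest sum of the pregnant gilts in LE and the highest in GE and S, while gilt 03 was the highest in LE. The sums weigh each enzyme by its level, and FDPS alone gave 1064 of the 2294 CPM in LE of gilt 01. Enzyme by enzyme, the median log2 ratio to the control mean was -0.93, -0.20, -1.33 and -0.83 in pregnant LE, in the same order. Controls ran from -0.24 to 0.15. In GE it was -0.51, -0.56, -0.12 and -0.96, against -0.61 to 0.17. In S it was -1.57, -0.73 and -1.46, against -0.16 to 0.16.

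**Figure D3:**
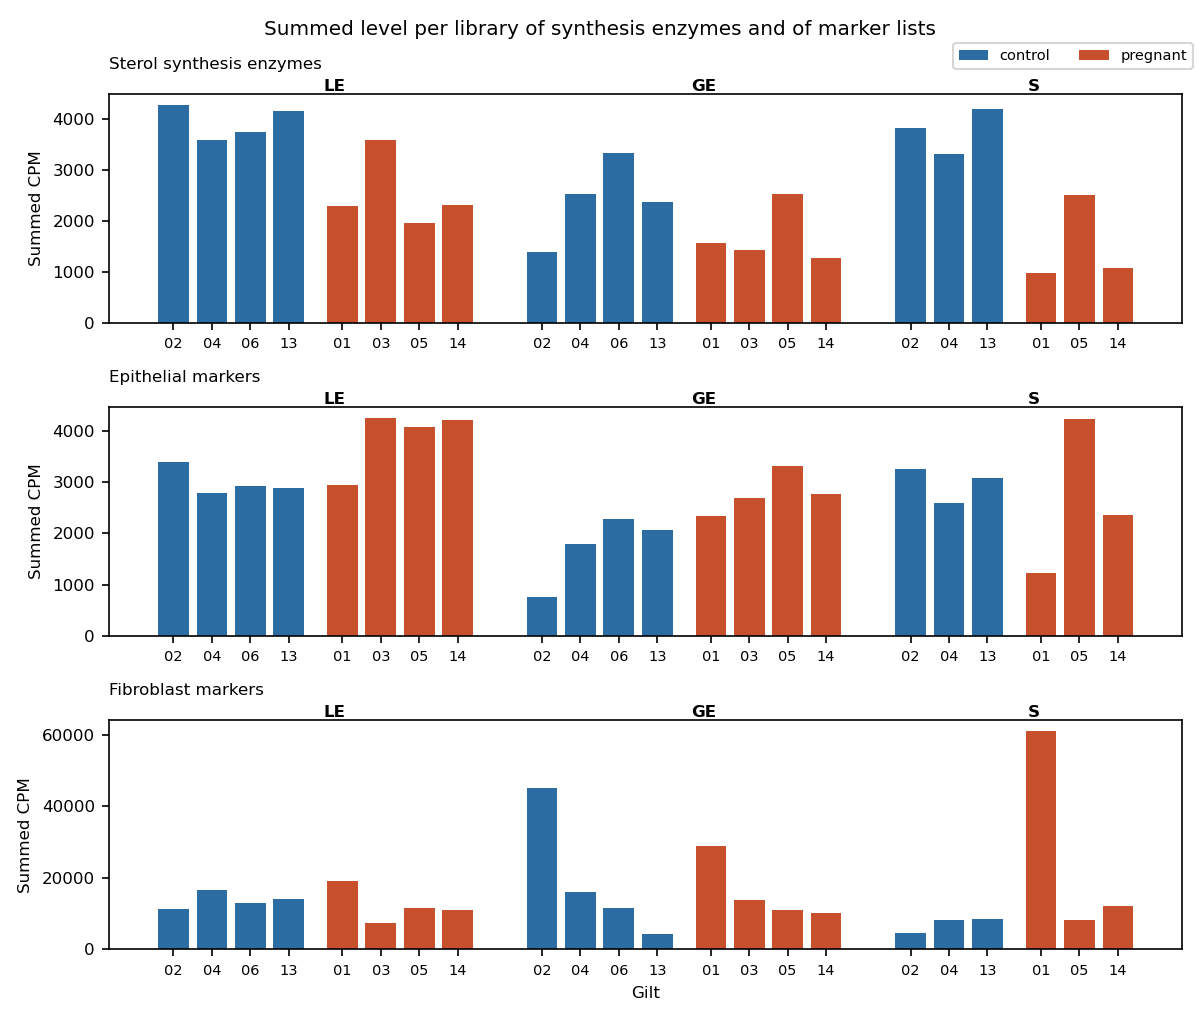
Summed CPM of the synthesis enzymes (19 in LE and S, 18 in GE), of 7 epithelial markers and of 7 fibroblast markers in each of the 22 libraries, by compartment and gilt number, with bars from 0. Synthesis is low in 3 of 4 pregnant LE and in all pregnant S libraries, and the control GE library of gilt 02 and the pregnant S library of gilt 01 stand out in fibroblast markers.

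The mevalonate and isoprenoid steps turn acetyl-CoA into farnesyl and geranylgeranyl diphosphate. In LE, 6 of the 8 members of this group were lower in the pregnant group with 1 called, in GE 6 of 7 with none called, and in S 7 of 8 with 1 called. Of all genes, 10.0% were called in LE, 0.694% in GE and 1.47% in S, and the shares lower are given with each compartment above. The median log2 FC was -0.61 in LE, -0.41 in GE and -1.25 in S. IDI1, the isomerase that makes the reactive isoprenoid unit (chromosome 10, 68534520 to 68539279, plus strand), was called in LE and S. In LE it had 157, 159.8, 159 and 224 CPM in control gilts 02, 04, 06 and 13 and 38.5, 99.2, 30.2 and 61.5 CPM in pregnant gilts 01, 03, 05 and 14. Every pregnant LE library lay below every control one, and IDI1 fell by 1.60 on the log2 scale (SE 0.33, FDR 0.00756). This call held when gilt 03 was left out and was lost when any other gilt was left out (FDR up to 0.0242). In S, the values were 139, 173 and 235 CPM in control gilts 02, 04 and 13 and 30.7, 69.0 and 28.8 CPM in pregnant gilts 01, 05 and 14. The S groups did not overlap, and IDI1 fell by 2.08 (SE 0.41, unadjusted p 0.00136, FDR 0.124). Without gilt 01 its log2 FC in S was -1.93 with an unadjusted p of 0.00514, and the call held without gilt 05 alone. In GE, IDI1 had 68.8, 140.2, 145 and 185 CPM in the control and 39.4, 44.1, 118 and 46.0 CPM in the pregnant gilts. The GE groups overlapped through gilts 02 and 05 (log2 FC -1.12, SE 0.42, unadjusted p 0.0266), and without gilt 05 the unadjusted p was 0.00107. Short stretches of its exons, 3.13% of windows of 50 bases, occur in other genes as well.

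HMGCS1, which condenses acetyl-CoA units to HMG-CoA and whose promoter is printed above, had 539.5, 539, 445 and 586 CPM in control LE and 236, 376, 135 and 219.6 CPM in pregnant LE, in the same order of gilts. The groups did not overlap, with a log2 FC of -1.13 (SE 0.28), but the FDR of 0.0160 missed the threshold. It had 503, 607 and 581 CPM in control S and 118, 341 and 123 CPM in pregnant S (log2 FC -1.54, unadjusted p 0.0112). Its S groups did not overlap either, with gilt 05 the highest of the pregnant ones. GE had 259, 476, 376 and 342 CPM against 217, 108, 384 and 187 CPM, which overlapped (log2 FC -0.70, unadjusted p 0.0907). MVD, which decarboxylates mevalonate diphosphate, stood just outside the threshold in LE with an FDR of 0.01003 and a log2 FC of -1.46, against an FDR of 0.00926 for MSMO1 just inside. MVD had 26.9, 29.1, 20.9 and 22.6 CPM in control LE and 8.17, 15.6, 6.65 and 6.25 CPM in pregnant LE. In S it had 15.0, 26.3 and 20.1 CPM against 8.09, 8.04 and 8.88 CPM (log2 FC -1.29, unadjusted p 0.00769). Pregnant libraries of LE and S were below all controls for MVD, whereas in GE the 9.47, 9.54, 19.7 and 18.9 CPM of the controls and the 18.2, 11.5, 9.57 and 14.1 CPM of the pregnant gilts overlapped (log2 FC -0.13).

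MVK, the mevalonate kinase, was the lowest member per kilobase in LE and S, with 4 counts in its lowest LE library. It had 10.3, 12.3, 12.5 and 13.1 CPM in control LE and 4.67, 10.9, 2.12 and 3.75 CPM in pregnant LE (log2 FC -1.22, SE 0.45, FDR 0.0787). Gilt 03 alone reached the control range. In S, MVK had 7.48, 11.4 and 9.52 CPM against 4.05, 4.35 and 4.90 CPM, without overlap (log2 FC -1.08, unadjusted p 0.0371). FDPS, the highest member, had 1281, 830.4, 1233 and 1054 CPM in control LE and 1064, 1350.2, 894 and 844 CPM in pregnant LE, which overlapped (log2 FC -0.08, SE 0.21). In GE, its values were 165, 247, 942 and 87.0 CPM against 288, 129.5, 217 and 156 CPM (log2 FC -0.87, unadjusted p 0.225), and control gilt 06 was far above the other GE libraries. Without gilt 06 the log2 FC of FDPS in GE turned to 0.26. In S, FDPS had 943, 557 and 961 CPM in the control and 146, 542 and 149.8 CPM in the pregnant gilts (log2 FC -1.55, SE 0.58, unadjusted p 0.0302). The S groups did not overlap, with pregnant gilt 05 close to control gilt 04. ACAT2, which makes acetoacetyl-CoA, had a log2 FC of 0.03 in LE, -0.31 in GE and -1.21 in S. PMVK, the phosphomevalonate kinase, had values of 0.16, -0.41 and -0.32, and GGPS1, which makes geranylgeranyl diphosphate for protein prenylation, had -0.07, 0.07 and 0.77. None of these 3 was called in any compartment. In S, however, ACAT2 had 44.9 to 76.5 CPM in the control and 11.3 to 39.5 CPM in the pregnant gilts, without overlap (unadjusted p 0.0335), and PMVK had 8.66 to 9.52 CPM against 5.66 to 8.27 CPM, also without overlap. ACAT2 and PMVK share 5.74% and 8.01% of their exon bases with TCP1 and KCNN3.

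The squalene and lanosterol steps commit farnesyl diphosphate to sterol and close the ring. All 3 genes of this group were lower in pregnant LE and S, and 2 of 3 in GE, with a median log2 FC of -0.76, -1.78 and -0.61 in LE, S and GE, and none was called. FDFT1, the squalene synthase, had 675, 635, 544 and 618 CPM in control LE and 240.5, 539, 334 and 347 CPM in pregnant LE. No overlap was seen there, although gilt 03 was only just below control gilt 06 (log2 FC -0.76, SE 0.23, FDR 0.0416). In S, FDFT1 had 594, 474 and 639.5 CPM against 75.3, 252 and 107 CPM, without overlap (log2 FC -1.97, SE 0.47, unadjusted p 0.00382). GE values of FDFT1 were 117, 225, 510.3 and 196 CPM against 136, 190.2, 255 and 106 CPM, which overlapped (log2 FC -0.61, unadjusted p 0.213). SQLE, the squalene epoxidase and first oxygen-dependent step, had 211, 176, 160.4 and 215 CPM in control LE and 64.2, 247, 51.1 and 59.0 CPM in pregnant LE. In LE, 3 pregnant gilts lay far below the controls, while gilt 03 was the highest of all 8 libraries (log2 FC -0.85, SE 0.46, FDR 0.217). Without gilt 03, the log2 FC of SQLE in LE was -1.72 with an FDR of 4.88e-04. In S, SQLE had 223, 205 and 218 CPM against 44.5, 109 and 33.7 CPM (log2 FC -1.78, unadjusted p 0.0049). In GE, it had 104, 199, 155 and 165 CPM against 92.4, 64.3, 143 and 47.7 CPM (log2 FC -0.84, unadjusted p 0.0393). The S groups of SQLE were apart and the GE groups overlapped. LSS, which closes the sterol ring to lanosterol and is annotated on an unplaced scaffold, had log2 FC values of -0.59 (FDR 0.121), 0.35 and -0.27 in LE, GE and S.

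**Figure D4:**
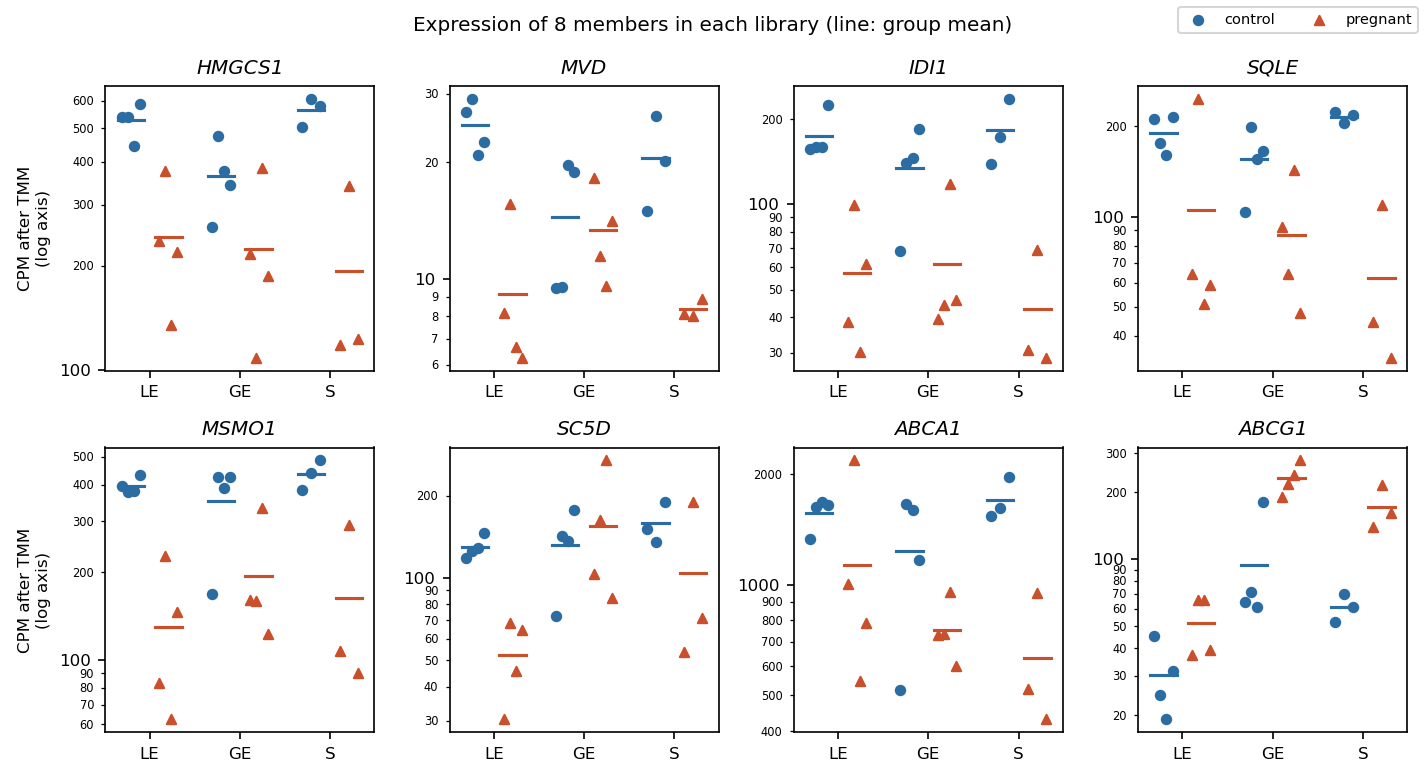
CPM of 8 members in each library of LE, GE and S on a log axis, with control gilts as circles, pregnant gilts as triangles and the group mean as a line. For IDI1, HMGCS1 and MSMO1 the pregnant libraries lie below the control libraries in LE and S, whereas for ABCG1 they lie above them in GE and S.

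The steps after lanosterol trim and rearrange the ring to cholesterol. All 8 genes were lower in pregnant LE (2 called, where 10.0% of all genes were) and in pregnant S (none called), and 6 of 8 in GE (none called), with a median log2 FC of -0.71, -1.12 and -0.34. MSMO1, which removes methyl groups from the ring (chromosome 8, 43726834 to 43745784, minus strand), had 396, 379, 382 and 433 CPM in control LE and 82.9, 228, 62.3 and 146 CPM in pregnant LE. The controls lay close together, all pregnant gilts lay below them, and MSMO1 fell by 1.61 (SE 0.35, FDR 0.00926). Like that of IDI1, the call held without gilt 03 and was lost without any other gilt (FDR up to 0.0256). In S, MSMO1 had 385, 440.3 and 486 CPM against 107, 292 and 89.8 CPM, without overlap (log2 FC -1.42, SE 0.47, unadjusted p 0.0186). GE had 168, 427, 389 and 426 CPM against 161, 159, 332 and 123 CPM. Here control gilt 02 lay at the level of the pregnant gilts and gilt 05 near the controls (log2 FC -0.86, unadjusted p 0.0540), and without gilt 02 the log2 FC was -1.10 (unadjusted p 0.00957).

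SC5D, the desaturase of the B ring (chromosome 9, 48357115 to 48372391, plus strand), had 118, 126, 129 and 145 CPM in control LE and 30.4, 68.5, 45.7 and 64.7 CPM in pregnant LE. The groups were far apart, and SC5D fell by 1.29 in LE (SE 0.24, FDR 0.00393), a call lost without gilt 02, 04, 05, 06 or 13 (FDR up to 0.0160). In GE it had 72.5, 143, 136 and 178 CPM against 103, 163, 269 and 84.5 CPM (log2 FC 0.23, SE 0.40), and in S 151, 135 and 190.0 CPM against 53.4, 189 and 71.4 CPM (log2 FC -0.59, unadjusted p 0.249). Both overlapped, in S through gilt 05. A noncoding gene on the other strand, LOC106504896, covers 66.5% of the exon bases of SC5D and is not listed in any table. Because the use of strand in counting is not given in the sources used here, reads of the 2 genes cannot be told apart and the values of SC5D are uncertain.

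CYP51A1, the lanosterol demethylase, had 354, 287, 301 and 327 CPM in control LE and 187, 293, 126 and 201 CPM in pregnant LE, overlapping through gilt 03 (log2 FC -0.65, SE 0.24, FDR 0.0724). Its S values of 374, 304 and 343 CPM in the control and 100.3, 269 and 107 CPM in the pregnant gilts did not overlap (log2 FC -1.10, unadjusted p 0.0328). In GE it had 133, 328, 287 and 303 CPM against 163, 160.0, 325 and 135 CPM. These overlapped, again with gilt 02 low and gilt 05 high (log2 FC -0.42, unadjusted p 0.270). TM7SF2, a sterol reductase, was low throughout, with 3 counts in its lowest S library. It had 12.9, 11.8, 5.92 and 22.8 CPM in control LE against 7.0, 7.27, 3.33 and 14.1 CPM (log2 FC -0.74, FDR 0.320). GE values of TM7SF2 were 11.12, 10.0, 8.89 and 7.56 CPM against 3.53, 4.83, 4.64 and 2.83 CPM (log2 FC -1.22, SE 0.32, unadjusted p 0.00426), and in S 9.06, 13.1 and 21.96 CPM against 2.43, 5.36 and 3.68 CPM (log2 FC -1.89, SE 0.52, unadjusted p 0.00754). Groups of TM7SF2 overlapped in LE and were apart in GE and S.

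NSDHL, which works with MSMO1 in demethylation, had 34.7, 43.0, 34.5 and 43.3 CPM in control LE and 26.9, 38.4, 19.95 and 20.6 CPM in pregnant LE (log2 FC -0.57, FDR 0.121). In GE, the values were 17.7, 16.2, 25.8 and 21.9 CPM against 22.2, 15.1, 18.8 and 12.7 CPM (log2 FC -0.25), and in S they were 27.6, 37.7 and 42.1 CPM against 18.6, 16.4 and 13.8 CPM (log2 FC -1.15, unadjusted p 0.00572). The groups were apart in S, and gilt 03 joined the controls in LE. EBP, the sterol isomerase, had 20.7, 25.9, 16.7 and 25.3 CPM in control LE and 14.01, 21.8, 9.67 and 10.9 CPM in pregnant LE (log2 FC -0.68, FDR 0.136). Its GE values were 14.8, 6.68, 14.4 and 9.99 CPM against 11.104, 9.36, 8.12 and 13.4 CPM (log2 FC -0.14), and in S 16.9, 19.3 and 21.6 CPM against 8.09, 11.0 and 7.66 CPM (log2 FC -1.10, unadjusted p 0.0130). As for NSDHL, only the S groups of EBP were apart. HSD17B7, a sterol ketone reductase, ranged from 124 to 224 CPM in control LE and from 81.7 to 113 CPM in pregnant LE, without overlap (log2 FC -0.74, FDR 0.0370), with 0.32 in GE and -0.54 in S. DHCR7, which acts at the end of the pathway, had log2 FC values of -0.32, -0.72 and -1.29 in LE, GE and S, and its S groups were apart (15.4 to 19.8 CPM in the control and 6.43 to 8.04 CPM in the pregnant gilts, unadjusted p 0.00594).

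Of the 5 genes of SREBP regulation, none was called in any compartment. INSIG1, the sterol-dependent anchor of SCAP and itself an SREBP target, had the most negative log2 FC of all members in LE (-1.70, SE 0.39, FDR 0.0122). Control LE ranged from 49.8 to 78.2 CPM and pregnant LE from 10.6 to 33.9 CPM, without overlap. It had -0.96 in GE and -1.30 in S, where pregnant gilts ranged from 5.51 to 64.6 CPM and controls from 75.4 to 89.1 CPM. INSIG2, its isoform with other regulation, had -0.85, -0.32 and -1.30 in LE, GE and S, and its S groups were apart, at 108 to 157 CPM and 42.1 to 71.0 CPM (unadjusted p 0.00248). SREBF2, the factor that mainly drives cholesterol genes, had -0.13 in LE, -0.45 in GE and -0.84 in S, with 242 to 282 CPM in control S and 116 to 198 CPM in pregnant S. SREBF1, which mainly drives fatty acid genes, had -0.41, 0.02 and 0.40, and SCAP had 0.50, 0.16 and 0.13. The values of these 2 genes overlapped in every compartment.

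Neither group of transport, storage and uptake genes held a called member. The median log2 FC of the 4 transport and storage genes was -0.21 in LE, -0.12 in GE and -0.03 in S, and that of the 4 uptake genes was -0.05, 0.02 and -0.09. The uptake group holds receptors and also MYLIP, which removes receptors, so its median mixes genes of opposite effect on uptake. STARD4, a cytosolic sterol carrier and known SREBP target, had -0.29, -0.26 and -1.33 in LE, GE and S, and in S the 85.6 to 108 CPM of the controls lay above the 17.8 to 76.0 CPM of the pregnant gilts. NPC1 and NPC2, which release sterol from late endosomes, had -0.26 and -0.16 in LE, -0.01 and -0.24 in GE, and -0.33 and 0.80 in S. SOAT1, which esterifies sterol for storage, had 0.08, 0.15 and 0.28. SCARB1, the receptor for high density lipoprotein, had 0.09 in LE, 0.32 in GE and -0.27 in S. LRP1, a large receptor for remnant lipoproteins, had -0.18, -0.29 and 1.34. Its highest S and GE values, 1120 and 1070 CPM, came from the libraries of gilts 01 and 02 that were rich in fibroblast markers. Without these libraries the log2 FC of LRP1 turned to -0.12 in S and 0.57 in GE, and that of NPC2 in S was 0.00. The part of the markers in these values was not tested. MYLIP, the ubiquitin ligase that removes lipoprotein receptors, had 0.47, -0.35 and 0.09. LRP8, a lipoprotein and reelin receptor and the lowest member per kilobase in GE, had 26.6, 19.2, 15.0 and 25.8 CPM in control LE against 10.5, 22.8, 14.2 and 10.0 CPM in pregnant LE. GE had 19.4, 7.15, 12.5 and 7.02 CPM against 16.2, 23.5, 17.7 and 5.302 CPM, and S had 42.9, 13.7 and 17.2 CPM against 17.8, 13.4 and 8.27 CPM. All 3 comparisons of LRP8 overlapped (log2 FC -0.58, 0.45 and -0.92).

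The 2 exporters differed in sign. ABCG1, which loads sterol onto mature lipoprotein particles (chromosome 13, 205561897 to 205628428, plus strand), had 45.4, 24.6, 19.1 and 31.5 CPM in control LE and 37.4, 66.0, 65.9 and 39.0 CPM in pregnant LE. Only control gilt 02 reached the pregnant range there (log2 FC 0.80, SE 0.30, FDR 0.0843). In GE it had 64.7, 71.1, 61.1 and 181 CPM against 191, 218, 239 and 278 CPM. All pregnant GE libraries lay above the controls, gilt 13 being far above the other controls (log2 FC 1.29, SE 0.37, unadjusted p 0.00657, FDR 0.413), and without gilt 13 the log2 FC was 1.82 with an unadjusted p of 2.11e-05. In S, ABCG1 had 52.4, 70.1 and 61.1 CPM against 140.0, 215 and 161 CPM. The groups were clearly apart, and ABCG1 rose by 1.49 (SE 0.26, unadjusted p 6.12e-04, FDR 0.0995). Without gilt 01 its log2 FC in S was 1.59 (unadjusted p 7.24e-04), and the call was lost when control gilt 02, 04 or 13 was left out (unadjusted p up to 0.00462). ABCA1, which loads sterol onto lipid-poor apolipoproteins, had 1569.7 ± 161 CPM in control LE (SD, n = 4), 1236 ± 525 CPM in control GE (n = 4) and 1704 ± 226 CPM in control S (n = 3). In S, its control values of 1534, 1618 and 1961 CPM lay above the pregnant values of 519, 948 and 430.1 CPM (log2 FC -1.43, SE 0.39, unadjusted p 0.00754, FDR 0.219). In LE, pregnant gilts spread from 546 to 2178 CPM around the control range of 1329 to 1675 CPM (log2 FC -0.48), with gilt 03 the highest. In GE, pregnant gilts ranged from 602 to 954 CPM and controls from 518 to 1658 CPM, with gilt 02 the lowest (log2 FC -0.71), and without gilt 02 the log2 FC was -0.97 (unadjusted p 0.00398). ABCA1 was not called in any compartment.

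Whether the difference between pregnant and control gilts was of another size in 1 compartment than in another was tested as an interaction in a joint fit of all 22 libraries. No member was called at an FDR below 0.05. Of 10643 genes, 0.404% were called for LE against GE, 0% for LE against S and 0% for GE against S. At an unadjusted p below 0.05, 3 of 33 members (9.09%) differed between LE and GE, 2 (6.06%) between LE and S and 4 (12.1%) between GE and S, beside 12.5%, 10.8% and 6.05% of all genes, and the Wald test of DESeq2 called 0 members for each. For LE against GE these were MVD, SC5D and LSS. MVD differed by -1.30 on the log2 scale (95% interval -2.19 to -0.41, FDR 0.198) and SC5D by -1.51 (-2.59 to -0.43, FDR 0.228). For LE against S they were ACAT2 (1.26, FDR 0.402) and SREBF2. For GE against S they were NSDHL, EBP, FDFT1 and MVD, all at an FDR of 0.806. The log2 FC of these enzymes was therefore not shown to differ between compartments.

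The second question was how the compartments differ irrespective of pregnancy, using the mean of the control and pregnant groups and values on 1 common scale. Between GE and LE, 8 of 33 members (24.2%) were called at an FDR below 0.05, which is near the 26.0% called among 10643 genes. Lower in GE were FDPS, FDFT1, ACAT2, NSDHL, EBP and SCARB1, and higher were ABCG1 and SC5D. FDPS had 1119 ± 207 CPM in control LE and 1062 ± 236 CPM in pregnant LE (each SD, n = 4), against 368 ± 404 and 199.98 ± 69.8 CPM in GE, a difference of -2.01 on the log2 scale (SE 0.40, FDR 0.00130). LE libraries of FDPS ranged from 846 to 1380.5 CPM, and GE libraries from 88.1 to 289 CPM but for control gilt 06 at 965 CPM. FDFT1 differed by -1.16 (SE 0.29, FDR 0.00644), ACAT2 by -1.13 (SE 0.24, FDR 0.00201), NSDHL by -0.78 (SE 0.17, FDR 0.00277) and EBP by -0.69 (SE 0.20, FDR 0.0165). FDFT1 ranged from 248 to 688 CPM in LE and from 107 to 523 CPM in GE, ACAT2 from 37.3 to 90.9 CPM and from 19.4 to 43.5 CPM, NSDHL from 20.4 to 44.0 CPM and from 12.8 to 26.5 CPM, and EBP from 9.87 to 26.4 CPM and from 6.96 to 14.8 CPM. Their ranges thus overlapped at the edges. The receptor SCARB1 was lower in GE by -0.86 (SE 0.17, FDR 0.00114), and its LE range of 112 to 179 CPM lay above the GE range of 55.1 to 109 CPM. ABCG1 was higher in GE by 1.89 (SE 0.24, FDR 5.4e-05), with 95.9 ± 58.5 and 235 ± 36.2 CPM in control and pregnant GE and 30.7 ± 11.6 and 53.2 ± 16.3 CPM in LE. SC5D was also higher in GE (0.79, SE 0.28, FDR 0.0407), where LE ranged from 31.3 to 148 CPM and GE from 71.4 to 273 CPM. Leaving out any gilt kept ABCG1, ACAT2, FDFT1, FDPS, NSDHL and SCARB1, whereas EBP was lost without gilt 03, 04 or 13 and SC5D without gilt 03, 04, 05, 06 or 13.

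**Figure D5:**
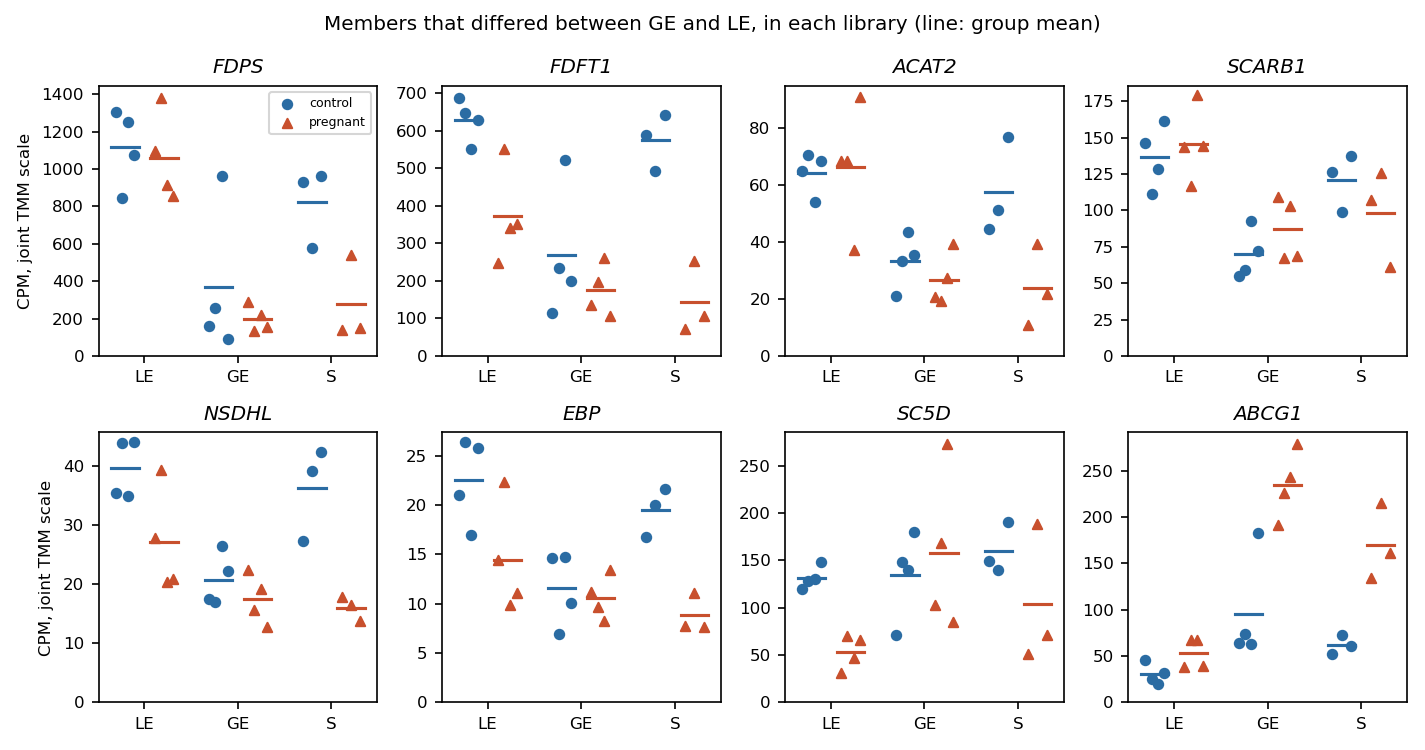
CPM on the common scale of the 8 members that differed between GE and LE, in each library of LE, GE and S, with control gilts as circles, pregnant gilts as triangles and the group mean as a line. For FDPS, FDFT1, ACAT2, NSDHL and EBP the control S libraries lie near LE and most pregnant S libraries near GE.

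For several of these genes, the libraries labeled S lay near LE in control gilts and near GE in pregnant gilts. Against LE, 1 of 33 members was called (3.03%), with a background of 4.23% of 10643 genes. ABCG1 was higher in S by 1.34 (SE 0.25, FDR 0.00652), with 61.99 ± 10.4 CPM in control S and 170.3 ± 41.2 CPM in pregnant S (each SD, n = 3). This call was lost without gilt 04, where 38 of 10643 genes were called. Without gilt 05, 5 members were called (15.2%, against 7.01% of all genes). With the gilt as a random replicate block, 3 members (9.09%) were called in S against LE beside 1099 genes (10.3%), as ACAT2 (-0.80, FDR 0.0358) and FDPS (-1.26, FDR 0.0427) joined ABCG1. In S against GE, no member was called by edgeR, which called 0% of the 10643 genes, nor by DESeq2, whose Wald test called 31 of them, and in edgeR 868 genes and 2 members, SCARB1 and ABCG1, had an unadjusted p below 0.05. Values of FDFT1 were 574 ± 76.2 CPM in control S beside 629 ± 57.1 CPM in control LE and 268 ± 177 CPM in control GE. In pregnant gilts, they were 144 ± 95.6 CPM in S beside 373 ± 128 CPM in LE and 175 ± 67.7 CPM in GE. The same order held for NSDHL, with 36.2 ± 7.89, 39.5 ± 5.07 and 20.7 ± 4.49 CPM in control S, LE and GE and 16.02 ± 2.06, 27.1 ± 8.81 and 17.5 ± 4.15 CPM in the pregnant gilts. The part of this in the lower values of pregnant S was not tested.

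Lists of related genes outside the 34 were set beside the members. Of the 29 other sterol homeostasis genes listed for LE (of 34 named), 2 were called and both rose in pregnant gilts, with a list median of -0.09. This share of 6.90% is below the 10.0% called among all genes of LE. These were NR1H3, the LXR alpha receptor that switches on sterol exporters (12.5 ± 2.78 to 40.8 ± 11.14 CPM, SD of 4 libraries each, log2 FC 1.68, FDR 0.00174), and CH25H, which makes an oxysterol (5.42 ± 1.21 to 18.6 ± 9.46 CPM, log2 FC 1.76, FDR 0.00805). None of this list was called in GE (28 genes, 1 at an unadjusted p below 0.05, as were 8.09% of all genes) or S (27 genes, 4 at that p, as were 12.5% of all genes). Of the other isoprenoid and sterol ring genes, 1 of 9 was called in LE, NUS1 of dolichol synthesis, which rose by 0.72 (FDR 0.00549), near the share of all genes, and none of 7 in GE and of 9 in S. Of the 9 SREBP targets of fatty acid synthesis, none was called in LE or GE and 1 in S, where 1.47% of all genes were. SCD, the stearoyl-CoA desaturase, fell by 1.49 in S (unadjusted p 9.91e-04, FDR 0.116), from 111 ± 22.5 to 39.4 ± 9.21 CPM. The list median was -0.44 in LE, -0.18 in GE and -0.49 in S.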

How the data were processed

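RNA of LE, GE and S areas captured by laser was sequenced in 22 libraries of 8 gilts. The authors deposited counts of reads per gene in 1 table per compartment. They clipped 5 bases from read starts, mapped reads to Sscrofa11.1 with Hisat2, removed PCR duplicates by 8 random adapter bases and left out genes under a CPM cut-off. The counting tool and its use of strand are not given in the sources used here. Groups follow the labels.

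All listed genes entered edgeR's quasi-likelihood test (edgeR 4.0.16, R 4.3.3, TMM scaling, Benjamini-Hochberg adjustment), separately for each compartment. Called means an FDR below 0.01 in LE and an unadjusted p below 0.0021 in GE and S, as the study set them. The study took 0.0021 because it matched that FDR in its own LE test. In the edgeR fit here, MVD in LE had an unadjusted p of 0.00101 at an FDR of 0.01003. The cut-off in GE and S was therefore looser than that in LE, and IDI1 in S (unadjusted p 0.00136) passed only the looser one. A joint fit of the 10643 genes of all 3 tables gave the compartment contrasts and interactions, called at an FDR below 0.05. CPM are counts over the TMM-scaled library size, per compartment or, for the joint fit, on 1 scale. CPM per kilobase use the union of exons. The SE is that of the log2 FC. Each gilt is 1 animal and gave 1 library per compartment.

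All listed IDs were found in the RefSeq annotation of Sscrofa11.1. IDI1 was matched by product name and CYP51A1 by synonym. The members and lists were chosen with earlier results of these data known. Every member is named. Values per library are given for members called in a pregnancy comparison, with an unadjusted p below 0.05 in at least 2 compartments, or highest or lowest per kilobase. Members called between compartments are given by means and ranges, and of other lists at most 4 called genes are named. Ranges of further members, and the values of ABCA1, were added after their values were seen where the rule did not ask for them.

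Libraries with the same gilt number come from the same animal. Deviations from the group means correlated within gilts with a median r of 0.257 between LE and GE (8 gilts), 0.314 between LE and S (6 gilts) and 0.468 between GE and S (6 gilts). In simulated data with 200 genes changed by 2 on the log2 scale, 180 were recovered in LE (11415 genes), 165 in GE (11676 genes), 145 in S (11532 genes) and 189 in S against LE (10643 genes). Unchanged genes called in the same simulations numbered 4 in LE, 20 in GE, 37 in S and 9 in S against LE. The changed genes were not drawn from those of lowest mean level, and all libraries were drawn as independent. The recovery therefore does not cover the lowest genes, and that of S against LE leaves out the pairing by gilt. Alternatives were other scalings, a filter of 10 counts in every library, DESeq2 1.42.0, a likelihood ratio test, thinned counts, subsets of gilts, other thresholds and the gilt as a block (limma 3.58.1 for the random block). The limit of 3 counts covers counting error only. The sequence of 1 further promoter is not reported here.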

Additional observations from a re-analysis of the deposited data

Results flagged for a closer look

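In groups of 4 libraries, a value was noted when its gap to the nearest other library exceeded Dixon's critical share of the range of the group. Of 50 groups (13 members in LE and GE), 6 were noted, and chance alone notes about 1 in 20 when values are normally distributed and independent. These groups share libraries, the distribution of CPM was not tested, and the rate over all genes was not determined. The 6 noted values are therefore not read as an excess. IDI1 stood out in pregnant GE with 118 CPM in gilt 05, where the others had up to 46.0 CPM, and in control LE with 224 CPM in gilt 13, where the others had up to 159.8 CPM. SQLE stood out in pregnant LE with 247 CPM in gilt 03, where the others had up to 64.2 CPM. CYP51A1 stood out in pregnant GE with 325 CPM in gilt 05, above 163 CPM in the next library. MSMO1 stood out in control GE with 168 CPM in gilt 02, the library rich in fibroblast markers, below 389 CPM in the next library. ABCG1 stood out in control GE with 181 CPM in gilt 13, above 71.1 CPM in the next library.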

How the results depend on the processing

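The main counts of called members were 3 in LE, 0 in GE and 2 in S for pregnant against control, 8 for GE against LE, 1 for S against LE, and 0 for S against GE and each interaction. The shares in parentheses here are those of all genes called by the same test. In LE, 6 members were called with scaling by library size alone (10.1%), with the DESeq2 Wald test (19.1%) and with the likelihood ratio test (18.2%), 1 with thinned counts (5.44%), 5 with the gilts with an S library (3.81%), and 8 at an FDR below 0.05 (2557 of 11415 genes). In GE, DESeq2 called 2 (2.06%) and so did the likelihood ratio test (1.58%). In S, DESeq2 called 10 (4.44%), the likelihood ratio test 8 (4.01%), and an FDR below 0.05 called 0 (29 of 11532 genes). In S against LE, DESeq2 called 2 (905 of 10643 genes) and so did the likelihood ratio test (6.83%). The cause was not tested. Scaling by library size alone moved the median log2 FC of all genes in LE from 0.01 to -0.14. Leaving out 1 gilt at a time gave 0 to 9 called members in LE (5.15% to 14.4%), 0 to 1 in GE (0.360% to 0.856%), 0 to 11 in S (0.564% to 1.92%), 6 to 11 for GE against LE (17.2% to 27.9%), 0 to 5 for S against LE (0.357% to 7.01%), and 0 for S against GE and the interactions. Without the control GE library of gilt 02 and the pregnant S library of gilt 01, an alternative chosen after seeing the data, 2 members were called in S against LE (9.41%).

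The log2 FC of pregnant against control turned its sign under at least 1 alternative for 10 members in LE, 10 in GE and 4 in S, none of them called in that compartment. Leaving out 1 gilt at a time gave in LE -0.184 to 0.239 for ACAT2, -0.0835 to 0.428 for PMVK, -0.237 to 0.00355 for FDPS, -0.224 to 0.0269 for GGPS1, -0.602 to 0.0163 for DHCR7, -0.226 to 0.0198 for SREBF2, -0.742 to 0.0576 for STARD4, -0.0427 to 0.179 for SOAT1 and -0.0316 to 0.181 for SCARB1. In GE it gave -0.309 to 0.0828 for MVD, -1.19 to 0.260 for FDPS, -0.252 to 0.208 for GGPS1, -0.317 to 0.00866 for EBP, -0.187 to 0.425 for SC5D, -0.194 to 0.177 for SREBF1, -1.11 to 0.0333 for STARD4, -0.106 to 0.220 for NPC1, -0.301 to 0.345 for SOAT1 and -0.680 to 0.574 for LRP1. In S it gave -0.0723 to 0.217 for SCAP, -0.597 to 0.732 for SOAT1, -0.116 to 1.76 for LRP1 and -0.0465 to 0.218 for MYLIP. With library size alone, the turned values were -0.111 for ACAT2, -0.0696 for SOAT1 and -0.0611 for SCARB1 in LE and -0.00614 for MYLIP in S. With thinned counts, they were 0.104 for GGPS1, 0.622 for DHCR7 and 0.159 for NPC2 in LE. With only the gilts with an S library, they were -0.0585 for ACAT2 in LE and 0.110 for MVD, 0.390 for FDPS, 0.0181 for EBP, -0.0122 for SREBF1 and 0.233 for NPC1 in GE. With at least 10 counts in every library, ACAT2 in LE had -0.0368.

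With the gilt as a random replicate block, 3 members were called in S against LE, and with a fixed replicate block 1. The block changed no other count of called members by over 1.5 times. Over all genes, the count went from 450 to 854 (fixed) and 1099 (random) for S against LE, from 43 to 312 and 316 for the interaction of LE against GE, and from 0 to 5 and 5 for that of LE against S. Within a compartment no block was possible, since each gilt is in 1 group.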
